A study of Mus musculus with 4 samples.

Results

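The 41 genes described here encode the carnitine system and the enzymes of mitochondrial and peroxisomal fatty acid oxidation. They were taken by symbol from a list that names them by pathway and sets no threshold on measured values, drawn up when earlier results of these data were known, and all 41 were among the 32285 genes of the deposited tables. In mitochondrial oxidation a long-chain acyl-CoA synthetase activates the fatty acid, the carnitine shuttle carries it across the mitochondrial membranes, and a repeated cycle of dehydrogenation, hydration, oxidation and thiolysis shortens it, with electrons passed on through the electron transfer flavoprotein. Peroxisomes shorten very long-chain and branched fatty acids and bile acid precursors with a separate set of enzymes. Proximal tubule (PT) cells are rich in both organelles and are known to rely on fatty acids as a fuel, and many genes of the pathway are known targets of the nuclear receptor PPAR-alpha.

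The scRNA-Seq data came from whole kidneys of male mice of the C3H strain (C3H/HeJ in the study's methods), in 4 libraries with 1 library per condition. Mice were WT or Sweet Pee (SP) mutants, which carry a missense allele of Slc5a2, the gene of the glucose cotransporter SGLT2 of the early PT, and they were fed a normal diet (ND) or a high-fat diet (HFD, 60% of calories from fat) for 8 weeks from 10 weeks of age, so that kidneys were taken at 18 weeks. The libraries are called WT-ND and WT-HFD, or SP-ND and SP-HFD. The allele is present in every cell type, and the number of mice behind each library is not given in the sources used here. The comparisons ask in which kidney cells the pathway was expressed and whether its genes differed with diet and genotype. With 1 library per condition there is no error between mice. No test was made, and the 95% intervals (exact Poisson for a level, exact conditional binomial for a ratio) cover counting error only.

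The libraries held between 13229 and 16385 barcodes and between 90728590 and 115117649 UMIs. Barcodes with 50% or more mitochondrial UMIs made up between 32.7% of a library (WT-ND) and 49.8% (SP-ND), and between 6389 (SP-ND) and 9924 (WT-ND) cells per library were kept. Pairs of libraries shared between 54 and 77 barcodes. Cells were clustered without the 41 genes and other genes of the pathway, 111 in all, and clusters were named from markers. For WT, 2072 cells on ND and 1260 on HFD lay in PT-like clusters, and for SP 967 and 626, with medians of 8719.5, 8040.5, 14760 and 11851 UMIs per cell. Values of the 4 libraries are given in that order throughout (WT on ND and HFD, then SP on ND and HFD). All 11 PT markers were detected in the PT-like cells of each library, at a summed level of between 13949 and 14671 CPM, the UMIs of a gene per 1000000 UMIs of the pooled cells. The markers within that sum did not all stay level. Lrp2, the endocytic receptor megalin, was at 1420, 917, 1333 and 981 CPM, and Slc7a13, a late PT transporter, at 457, 262, 315 and 330. Slc5a2 mRNA was at 324 CPM on ND and 256 on HFD in WT, and 55.5 and 99.5 in SP, and because a missense allele still gives mRNA, this level does not check the genotype labels. Free RNA was present: PT markers in immune cells were at 16.8% and 9.40% of their PT-like level in WT (ND and HFD) and at 5.92% and 2.98% in SP, and the summed level of the 41 genes in immune cells was at 27.4%, 21.2%, 19.6% and 12.9% of that in PT-like cells. The part of free RNA in the values below was not tested beyond the alternative that subtracts 10% of ambient RNA.

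Fatty acid oxidation genes were detected in all cell classes, and their summed level was highest in PT-like cells. Their summed level in PT-like cells was 8525 CPM on ND and 7845 on HFD in WT, and 8547 and 8327 in SP. The 4 libraries lay close together, and every one of them was above every library of the 6 other nephron segments. Mean levels over the 4 libraries were 4401 CPM in distal convoluted tubule (DCT), 4174 in thick ascending limb (TAL), 3724 in intercalated, 3627 in thin limb, 3578 in connecting tubule (CNT) and 3004 in principal cells. The ranges of TAL (3849 to 4571 CPM) and DCT (4177 to 4610 CPM) overlapped, those of TAL and intercalated cells did so too, and so did those of thin limb, CNT and intercalated cells. Podocytes, endothelial cells, stromal cells and immune cells had means of between 1337 and 2820 CPM. How much of these levels was free RNA was not tested, and in neutrophils they rested on between 123 and 206 UMIs per library. The log2 ratio of PT-like cells to the highest other segment, averaged over the libraries, was 0.92.

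**Figure D1:**
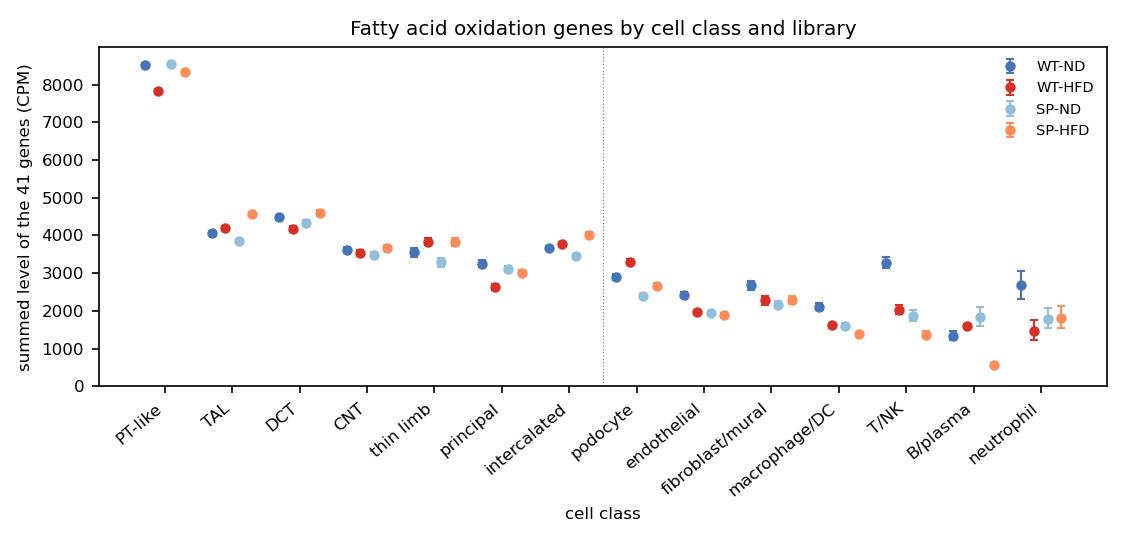
Summed level of the 41 fatty acid oxidation genes (CPM, y axis) by cell class (x axis), 1 point per library, with exact Poisson 95% intervals that are mostly smaller than the points; the dotted line separates nephron segments from other cell classes. The 4 PT-like points sit between 7845 and 8547 CPM, and DCT, the next segment by its mean, is at 4401.

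Single genes carried much of this sum. Slc27a2, the very long-chain acyl-CoA synthetase and fatty acid transporter known as FATP2, supplied between 21.1% (SP-ND) and 27.0% (WT-ND) of the UMIs of the 41 genes in PT-like cells. Scp2, whose longer protein is a peroxisomal thiolase, supplied between 11.6% and 13.8%. Leaving them out, the diet log2 ratio of the sum was -0.065 for WT and -0.095 for SP, against -0.12 and -0.04 with them, so that which genotype had the lower ratio depended on these genes. The sum without them was 5234 CPM on ND and 5004 on HFD in WT, and 5716 and 5350 in SP, and WT-HFD was the lowest and SP-ND the highest library with or without them.

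As a sum, the peroxisomal genes set PT-like cells apart, and several mitochondrial genes did not. Slc27a2 and Scp2 made up much of the peroxisomal sum, and not every peroxisomal gene was highest in PT-like cells. The 14 peroxisomal genes had a summed mean of 4759 CPM in PT-like cells, and the acyl-CoA dehydrogenases and electron transfer flavoprotein genes were also highest there, at 1082 and 982 CPM. The carnitine genes were at 417 CPM in PT-like cells and 379 in DCT. The later mitochondrial steps were at 924 CPM in PT-like cells and 1126 in DCT, and the long-chain synthetases Acsl1, Acsl3, Acsl4 and Acsl5 were at 146 CPM in PT-like cells (71.6 to 285 over the libraries) and 355 in DCT.

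The filter of a mean of 10 CPM in PT-like cells was passed by 40 of the 41 genes. The exception was Acad12, an acyl-CoA dehydrogenase family member, at 7.43, 9.10, 7.91 and 9.08 CPM. The comparison of segments used another filter, a mean of 10 CPM over the 7 segments, which 40 of the 41 genes and 8100 genes in all passed. Of these 40 genes, 25 were at their highest in PT-like cells among 7 segments, against 13.4% of the 8100 genes. Of the 25, 23 led in each of the 4 libraries. At least 2-fold above every other segment were 8 genes (5.31% of all genes tested), and at least 2-fold below the highest other segment were 8 (49.2% of all genes). The median log2 ratio of PT-like cells to the highest other segment was 0.42 for the 40 genes and -0.98 for all genes tested. Cells were assigned to segments by clusters of these same cells, so these ratios are descriptions.

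The 5 genes with the highest PT-like ratios were all in the peroxisomal group. Slc27a2 was at 2300 CPM on ND and 1757 on HFD in WT, and 1804 and 1876 in SP, and its mean in thin limb, the next segment, was 123 CPM, a log2 ratio of 3.96 (range over the libraries 2.86 to 5.51). Ehhadh, the peroxisomal bifunctional enzyme of hydration and dehydrogenation, had a log2 ratio of 3.33 (2.51 to 4.11) over CNT. Amacr, the racemase that makes branched acyl-CoAs fit for oxidation, followed with 3.05 (2.54 to 3.57) over thin limb.
Acaa1b, a peroxisomal thiolase, was at 3.03 (2.54 to 3.28) over thin limb. Acox3, a peroxisomal oxidase of branched acyl-CoAs, was at 1.91 (1.55 to 2.17) over CNT. The carnitine transporter Slc22a5 (1.77), Scp2 (1.43) and the dienoyl-CoA reductase Decr1 (1.26) completed the 8 genes. Acadm, the medium-chain acyl-CoA dehydrogenase, was at 458, 440, 503 and 523 CPM in PT-like cells and at a mean of 274 in thin limb, a log2 ratio of 0.81.

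At the other end were synthetases and core enzymes of long-chain mitochondrial oxidation. Acsl5 was at 9.92 CPM on ND and 12.8 on HFD in WT, and 6.68 and 14.3 in SP in PT-like cells and at a mean of 110 CPM in CNT, a log2 ratio of -3.22 (-4.05 to -2.70). Acsl4, which prefers arachidonic acid, was at a mean of 113 CPM in intercalated cells (log2 ratio -2.45) and was highest of all classes in podocytes. Acaa2, the mitochondrial thiolase of the last step of the cycle, was at a mean of 222 CPM in principal cells (log2 ratio -2.34, range -3.35 to -1.52).
Hadha and Hadhb encode the subunits of the mitochondrial trifunctional protein and lie head to head on chromosome 5 (GRCm38, 30118304 to 30155162 on the minus strand and 30155248 to 30184593 on the plus strand). Both were lower in PT-like cells, Hadha against TAL (-1.43, range -1.61 to -1.05) and Hadhb against DCT (-1.34, -1.47 to -1.20). Cpt1a, the carnitine palmitoyltransferase that gates mitochondrial entry, was at 111, 87.4, 100.2 and 92.9 CPM in PT-like cells and at a mean of 207 CPM in DCT, a log2 ratio of -1.07. Acsl3 (-1.18) and Acsl1 (-1.06) were the others at least 2-fold below. Eci2, a peroxisomal enoyl-CoA isomerase, was highest in podocytes.

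**Figure D2:**
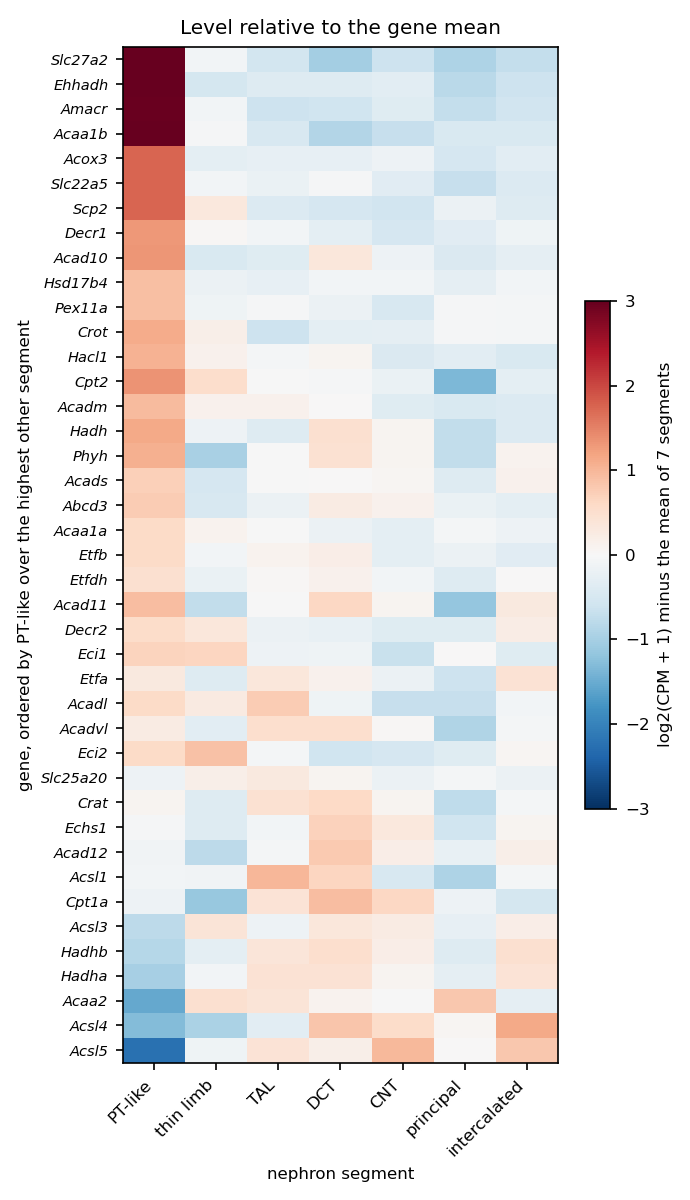
Mean level of each of the 41 genes in 7 nephron segments (columns) as log2(CPM + 1) minus the gene's mean over the segments, with genes (rows) ordered by PT-like cells over the highest other segment. Slc27a2 (log2 ratio 3.96) heads the plot and Acsl5 (-3.22) ends it.

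Within the PT, a finer clustering separated PT-like cells into an early cluster (1095, 540, 455 and 312 cells) and late clusters (980, 716, 509 and 316 cells). The larger late cluster (979, 706, 493 and 264 cells) had lower early markers than the other PT-like cells (mean log2 ratio -2.31). Its late markers were near level with theirs (-0.14). The smaller late cluster (1, 10, 16 and 52 cells) had higher late markers (4.50), so the mix of late cells differed between libraries. The summed level was higher in late cells in all 4 libraries. In WT it was 7529 CPM in early and 9386 in late cells on ND and 7365 and 8317 on HFD, and in SP 7507 and 9430 on ND and 7446 and 9287 on HFD. At least 1.5-fold higher in late cells were 2 of 40 genes (2.56% of 6520 genes tested), and at least 1.5-fold lower were 2 (3.40% of 6520 genes).
Crot, the peroxisomal carnitine octanoyltransferase, had a mean log2 ratio of late to early cells of 1.24 (0.99 to 1.41 over the libraries), and Amacr one of 0.87 (0.42 to 1.10). Acaa2 and Acsl1 were lower in late cells, with mean log2 ratios of -1.86 (-2.68 to -1.26) and -0.87 (-1.28 to -0.63). The median was 0.22 for the 40 genes and -0.01 for all genes.

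On HFD, WT PT-like cells had lower levels of a few activating and peroxisomal enzymes and of the mitochondrial thiolase Acaa2. Most of the pathway differed little. Of 40 genes, 6 fell at least 1.5-fold (0.58 on the log2 scale) in WT-HFD against WT-ND (3.82% of 6520 genes tested fell by as much): Acsl1, Acaa2, Ehhadh, Acsl3, Acaa1b and Hacl1. Acad10 alone rose past 1.5-fold (5.31% of all genes). The summed level had a log2 ratio of -0.12 (-0.13 to -0.11), and the median over the 40 genes was -0.05, against 0.01 over all genes tested. With the WT-HFD cluster described last counted as PT-like, the summed ratio was -0.34, and in early PT cells alone the median was 0.07. Markers of other cell types moved with this contrast in PT-like cells: the summed level of TAL markers (7 of 7 detected) was 296 CPM on ND and 448 on HFD in WT, and 335 and 347 in SP, that of intercalated cells (6 of 6) 28.2, 86.4, 21.3 and 29.0, and that of macrophages or dendritic cells (8, 7, 8 and 7 of 8) 13.0, 54.7, 39.5 and 32.8, each highest in WT-HFD. Their part in the diet ratios was not tested. Neither Etfa, Etfb nor Etfdh nor any of the 6 carnitine genes passed 1.5-fold.

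Acsl1, the main long-chain acyl-CoA synthetase of oxidative tissues (ENSMUSG00000018796, chromosome 8, 46471037 to 46536051, plus strand), was at 102 CPM on ND and 36.4 on HFD in WT, and 202 and 37.8 in SP. Both HFD libraries were low and SP-ND was the highest. Its log2 ratio of WT-HFD to WT-ND was -1.49 (-1.63 to -1.36), and it lay between -1.66 and -1.20 under all alternative settings.
Acaa2 was at 44.3, 18.7, 85.0 and 23.8 CPM, in the same order of libraries as Acsl1, and its log2 ratio was -1.24 (-1.44 to -1.05). It was 0.01 when that cluster was counted as PT-like. Acsl3, a synthetase found on lipid droplets and the endoplasmic reticulum, was at 16.3, 8.85, 45.2 and 11.9 CPM, again with SP-ND the highest, and its log2 ratio was -0.88 (-1.18 to -0.59). In late PT cells alone it was -0.42, and with the added cluster -0.56.

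Ehhadh was at 252 CPM on ND and 124 on HFD in WT, and 376 and 158 in SP. Both ND libraries were above both HFD libraries, and the log2 ratio of WT-HFD to WT-ND was -1.03 (-1.10 to -0.95), with a range of -1.34 to -0.89 over the alternatives. Acaa1b was at 143, 84.3, 207 and 68.0 CPM, with the same separation of diets and a log2 ratio of -0.76 (-0.85 to -0.66), which was -0.53 in early PT cells alone.
Hacl1, the lyase of alpha-oxidation, was at 24.2, 15.3, 31.4 and 14.3 CPM, and both HFD libraries were below both ND libraries. Its log2 ratio was -0.66 (-0.89 to -0.44), -0.58 without integration and -0.56 in early cells. Acad10, a dehydrogenase family member (chromosome 5, 121621026 to 121660514, minus strand), was at 22.7 CPM on ND and 35.1 on HFD in WT, and 15.0 and 33.1 in SP. Both HFD libraries were the higher ones, and its log2 ratio of 0.63 (0.44 to 0.81) ranged from 0.35 with the added cluster to 0.84.

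Acaa1a and Acaa1b are neighbouring near-copies. Of the 50-base stretches in the last 500 bases of the longest Acaa1a transcript, 42.1% were also found in Acaa1b transcripts. Reads of this 3′ assay from such stretches cannot be assigned to either gene alone, so both values are uncertain. Acaa1a was at 47.2, 58.2, 40.3 and 47.6 CPM, and its diet ratios (log2 0.30 in WT and 0.24 in SP) did not pass 1.5-fold. The 130 bases before the RefSeq start of each thiolase gene (GRCm38.p6) and of Ehhadh are shown because Acaa1b and Ehhadh had lower levels on HFD in both genotypes and Acaa1a did not. Capitals mark GC boxes (GGGCGG) and CCAAT boxes on either strand. Acaa1a is shown at chr9:119341164-119341293 (plus strand), Acaa1b at chr9:119157094-119157223 (minus strand) and Ehhadh at chr16:21787835-21787964 (minus strand).
Acaa1a: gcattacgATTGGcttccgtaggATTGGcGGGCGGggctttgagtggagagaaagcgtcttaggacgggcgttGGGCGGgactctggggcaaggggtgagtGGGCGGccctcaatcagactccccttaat
Acaa1b: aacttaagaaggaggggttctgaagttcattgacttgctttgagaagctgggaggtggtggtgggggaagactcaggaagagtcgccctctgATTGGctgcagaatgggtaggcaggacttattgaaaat
Ehhadh: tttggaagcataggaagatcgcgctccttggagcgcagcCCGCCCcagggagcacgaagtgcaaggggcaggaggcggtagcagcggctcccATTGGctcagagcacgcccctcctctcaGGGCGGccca
Acaa1a has 3 GC boxes and 2 CCAAT boxes in this stretch, Acaa1b has 0 and 1, and Ehhadh has 2 and 1.

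In windows of 300 bases (250 before and 50 after the start), 36 of the 41 genes were matched in the RefSeq table, with 38 windows of 32851. The GC box was in 71.1% of the genes' windows and 35.7% of all windows, on either strand, and the median GC content was 61.0% and 52.7%. CCAAT was in 39.5% of the genes' windows (37.4% of all), TGACG in 31.6% (20.8%) and the nuclear receptor hexamer AGGTCA in 18.4% (16.3%). CACGTG was in 0 of the 38 windows (7.15% of all), as were TNAAGGTCA, which overlaps the hexamer (1.28% of all), and the direct repeat with 1 spacer base, a pair of hexamers with 1 free letter each, known as DR1 (0.381% of all). A match is a run of letters in this window and says nothing about binding.

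On HFD, SP PT-like cells had the same 6 genes lower. More members than in WT passed the threshold in both directions, and so did more of all genes tested. In SP-HFD against SP-ND, 9 of 40 genes fell and 5 rose. Of all genes tested, 5.98% fell and 6.90% rose in SP, against 3.82% and 5.31% in WT. The 9 included all 6 that fell in WT (100% of the WT list, 66.7% of the SP list), together with Acsl4, Pex11a and Slc25a20, and the 5 that rose included Acad10, the 1 that rose in WT. These diet contrasts share no library, and the overlap over all genes tested was not computed. The summed level of 6 late PT markers was 991 CPM on ND and 1000.1 on HFD in WT, and 614 and 1198 in SP, so the PT-like cells of the SP libraries differed in these markers too. Their part in the ratios was not tested beyond the values within early and late cells, and the mix of late cells itself differed between libraries. The difference between the genotypes' diet ratios was not tested. The summed level had a log2 ratio of -0.04 (-0.05 to -0.02), and the median was -0.002 for the 40 genes and 0.006 for all genes. Without integration the summed ratio was 0.00044. With nuclear-encoded UMIs as the denominator it was -0.14, and that of WT was then -0.14 too. At that setting the median over all genes was -0.094 in SP and -0.007 in WT, and that of the members was -0.10 and -0.06.

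**Figure D3:**
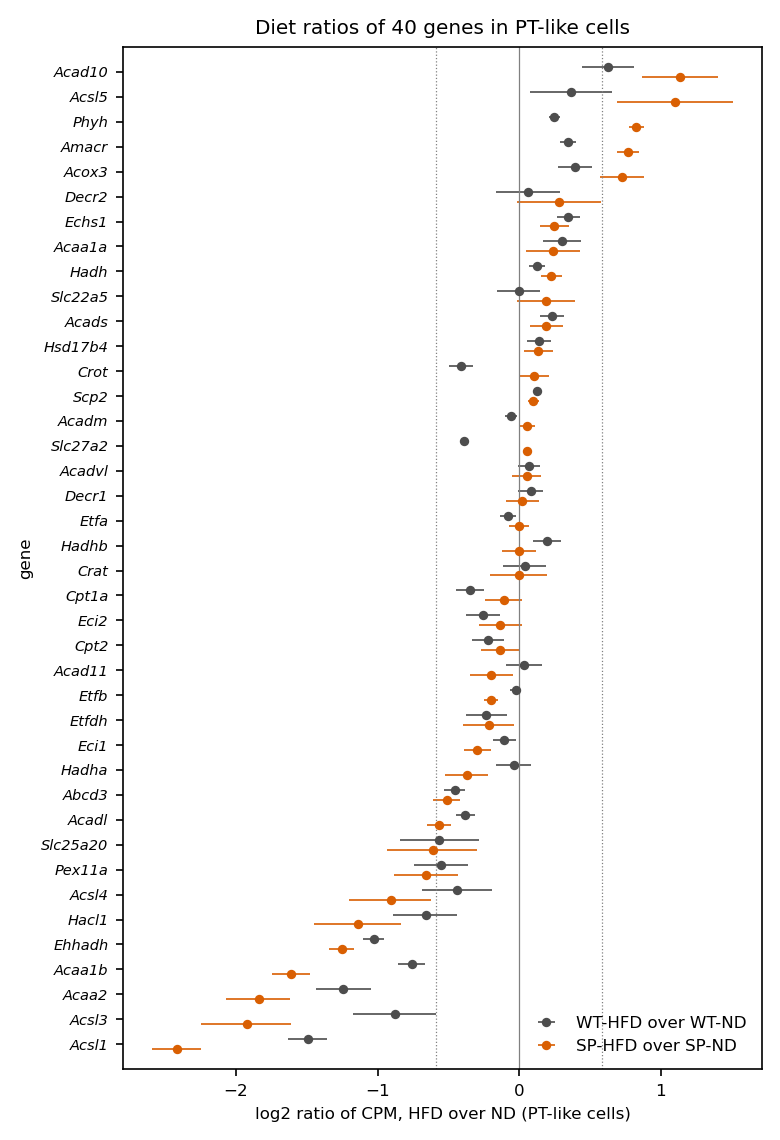
Log2 ratio of CPM on HFD over ND in PT-like cells (x axis) for 40 genes (y axis, ordered by the SP ratio), for WT and SP, with 95% conditional binomial intervals that cover counting error only; dotted lines mark 1.5-fold. Acsl1 is at the foot (-1.49 in WT and -2.42 in SP) and Acad10 at the top (0.63 and 1.14).

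Over all PT-like cells of SP, the synthetases Acsl1 and Acsl3 had the lowest ratios of the 40 genes. The log2 ratio in SP was -2.42 (-2.59 to -2.25) for Acsl1, -1.92 (-2.25 to -1.61) for Acsl3 and -0.91 (-1.20 to -0.62) for Acsl4, which was at 18.4, 13.6, 30.8 and 16.4 CPM. For each of them SP-ND was the highest of the 4 libraries and SP-HFD was not below WT-HFD, so the lower ratio in SP than in WT goes with the higher SP-ND level.
Acsl5 went the other way within this family, with the lowest level in SP-ND (6.68 CPM) and a log2 ratio of 1.10 (0.69 to 1.51) in SP. Acaa2 fell by 1.84 on the log2 scale (interval -2.07 to -1.62), Acaa1b by 1.61 (-1.74 to -1.48), Ehhadh by 1.25 (-1.34 to -1.16) and Hacl1 by 1.14 (-1.45 to -0.84). Pex11a, a factor of peroxisome division, was at 33.1, 22.6, 44.3 and 28.1 CPM, with a log2 ratio of -0.55 in WT, short of the threshold, and -0.66 (-0.88 to -0.43) in SP. Slc25a20, the carnitine-acylcarnitine carrier of the inner membrane, was at 15.5, 10.5, 22.0 and 14.4 CPM, with log2 ratios of -0.56 in WT and -0.61 (-0.93 to -0.30) in SP, and its SP ratio was under 1.5-fold in 5 alternatives, down to -0.10 in early cells.

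The genes that rose in SP were Acad10, Acsl5, Phyh, Amacr and Acox3. Phyh, Amacr and Acox3 act on branched fatty acids, as does Hacl1, which fell. Acad10 had a log2 ratio of 1.14 (0.87 to 1.41). Phyh, the hydroxylase that starts alpha-oxidation of phytanic acid, was at 548 CPM on ND and 651 on HFD in WT, and 380 and 675 in SP. Both HFD libraries were above both ND libraries, and its log2 ratio was 0.83 (0.77 to 0.88) in SP and 0.25 (0.21 to 0.29) in WT.
Amacr was at 258, 328, 202 and 344 CPM, with the same order of libraries and log2 ratios of 0.77 (0.69 to 0.84) in SP and 0.34 (0.29 to 0.40) in WT. Acox3 was at 56.2, 73.7, 48.9 and 81.0 CPM, with log2 ratios of 0.73 (0.57 to 0.88) in SP and 0.39 (0.27 to 0.51) in WT. Apart from Slc25a20, and from Pex11a, which was not followed under other settings, the genes that passed 1.5-fold in SP did so under all the alternative settings.

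**Figure D4:**
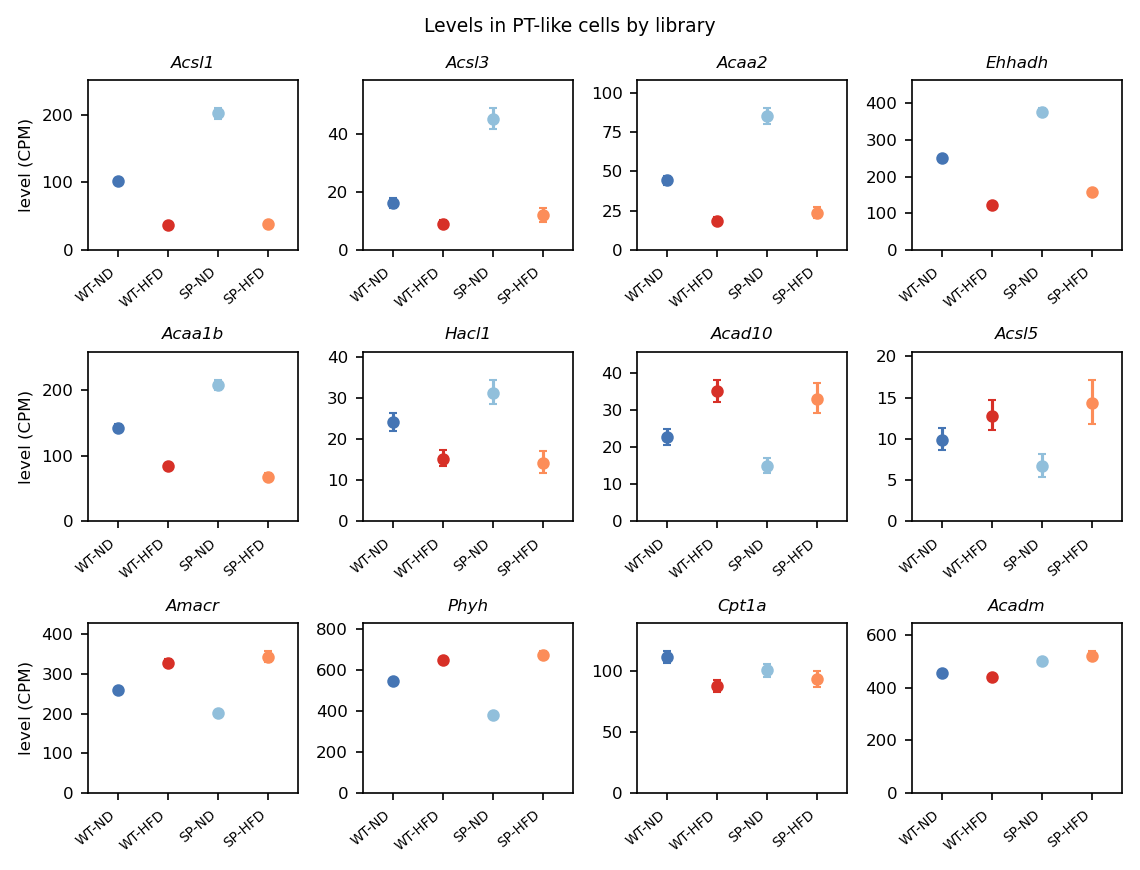
Levels (CPM, y axis from 0) of 12 of the 41 genes in PT-like cells, 1 panel per gene and 1 point per library, with exact Poisson 95% intervals. Acsl1, Acsl3, Acaa2, Ehhadh, Acaa1b and Hacl1 are low in both HFD libraries, Acad10, Acsl5, Amacr and Phyh are lowest in SP-ND, and Cpt1a and Acadm differ little (log2 diet ratios -0.35 and -0.06 in WT, -0.11 and 0.06 in SP).

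The remaining members differed less. Cpt1a had diet log2 ratios of -0.35 (-0.44 to -0.25) in WT and -0.11 (-0.24 to 0.02) in SP, and Acadm of -0.06 (-0.10 to -0.01) and 0.06 (0.00 to 0.11). Echs1, the mitochondrial enoyl-CoA hydratase, was at 128, 163, 138 and 163 CPM, with log2 ratios of 0.35 in WT and 0.25 in SP. Acads, the short-chain dehydrogenase, was at 113, 133, 109 and 124 CPM, with 0.23 and 0.19. Acadl, the long-chain dehydrogenase, and Abcd3, a peroxisomal fatty acid importer, came closest to 1.5-fold without passing it in SP, with log2 ratios of -0.57 and -0.51.

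The diet ratios kept their sign within early and late PT cells for the genes with the lowest values. In WT, Acsl1 was at -1.57 in early and -1.43 in late cells, and in SP at -2.24 and -2.91. Acaa2 was at -1.36 and -1.10 in WT and at -1.62 and -3.23 in SP. Ehhadh was at -0.89 and -1.08 in WT and at -1.06 and -1.32 in SP. Amacr was at 0.81 in early and 0.12 in late cells of WT, and at 1.00 and 0.74 in SP. The smaller late cluster held 16 cells in SP-ND and 52 in SP-HFD, and its part in the late ratios was not tested.

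In the other segments the summed level had diet log2 ratios in WT of between -0.30 (principal cells) and 0.11 (thin limb). Those in SP lay between -0.04 (principal cells) and 0.25 (TAL). The WT ratio was thus lower in principal cells than in PT-like cells (-0.12). Of single genes, Acsl1 and Acaa2 did not fall past 1.5-fold in other segments in either genotype. Acsl3 was lower on HFD in intercalated and principal cells of both genotypes. In TAL, Ehhadh and Acaa1b were lower on HFD in WT, and their intervals in SP spanned both signs. Acsl1 in TAL was at 190 CPM on ND and 195 on HFD in WT, and 219 and 189 in SP, with diet log2 ratios of 0.04 (-0.07 to 0.15) in WT and -0.21 (-0.31 to -0.12) in SP, and in DCT of -0.11 and 0.03. Acaa2 in TAL was at 122, 186, 131 and 222 CPM, so that both HFD libraries were the higher ones, and it rose by log2 ratios of 0.61 (0.48 to 0.74) in WT and 0.76 (0.66 to 0.87) in SP. In intercalated cells Acaa2 rose in SP (0.67, 0.48 to 0.87), and in WT its log2 ratio was 0.31 (0.12 to 0.50).
The log2 ratios of Acsl3 were -0.60 in WT and -0.54 in SP in intercalated cells, and -0.77 (-1.44 to -0.12) and -1.01 (-1.58 to -0.46) in principal cells. Ehhadh, at 26.3, 17.7, 21.5 and 17.6 CPM in TAL, had log2 ratios there of -0.57 (-0.91 to -0.24) in WT and -0.29 (-0.61 to 0.03) in SP. Acaa1b, at 15.0, 7.11, 10.6 and 8.93 CPM in TAL, had -1.07 (-1.59 to -0.58) and -0.25 (-0.71 to 0.20), and Hacl1 had -0.51 (-1.08 to 0.06) and 0.13 (-0.30 to 0.56). PT markers in immune cells, a measure of free RNA, were also lower on HFD relative to PT-like cells. They were at 16.8% on ND and 9.40% on HFD in WT, and at 5.92% and 2.98% in SP. The part of free RNA from PT cells in these low levels was not tested. Phyh in DCT had log2 ratios of -0.06 and -0.02. The difference between the cell classes in these ratios was not tested.

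On ND, SP PT-like cells had higher levels of Acsl1, Acsl3, Acsl4 and Acaa2 than WT, whereas the other long-chain synthetase, Acsl5, was lower by less than 1.5-fold. In SP-ND against WT-ND, 4 of 40 genes were at least 1.5-fold higher (2.35% of all genes tested) and 1 was at least 1.5-fold lower (1.89% of all). The log2 ratio was 1.47 (1.28 to 1.67) for Acsl3, 0.98 (0.90 to 1.06) for Acsl1, 0.94 (0.81 to 1.07) for Acaa2 and 0.74 (0.54 to 0.94) for Acsl4, and Ehhadh (0.58, 0.52 to 0.63) and Acaa1b (0.54, 0.47 to 0.62) lay just under the threshold.
Acad10 was lower (-0.60, -0.84 to -0.36), a value that missed 1.5-fold in 7 alternatives and was -0.25 among cells with under 30% mitochondrial UMIs. Acsl5 (-0.57, -0.94 to -0.21), Phyh (-0.53), Amacr (-0.36) and Slc27a2 (-0.35) had the next lowest ratios. The summed level had a log2 ratio of 0.00 (-0.01 to 0.01), which was 0.13 without Slc27a2 and Scp2, and the median was 0.12 for the 40 genes and 0.07 for all genes. Among PT-like cells the mitochondrial share of UMIs was 37.1% in SP-ND and 32.8% in WT-ND. With nuclear-encoded UMIs as the denominator 7 genes were higher and 0 lower. The shares over all genes were not computed at that setting, and the median over all genes was then 0.17. This comparison uses the same WT-ND and SP-ND libraries as the diet contrasts, so that a high or low SP-ND level enters both.

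On HFD, PT-like cells of the genotypes differed little in these genes, and few of all genes tested passed 1.5-fold. In SP-HFD against WT-HFD, 0 of 40 genes were at least 1.5-fold higher (0.982% of all genes tested) and 0 were at least 1.5-fold lower (0.690% of all). Of the 40 log2 ratios, 32 were above 0 and 8 below, and 25 were above the median of all genes. Ratios ranged from -0.31 (-0.46 to -0.16) for Acaa1b to 0.48 (0.37 to 0.59) for Crot on the log2 scale, with a median of 0.11, against 0.05 over all genes, and a summed ratio of 0.09 (0.07 to 0.10).
Slc25a20 (0.46), Acsl3 (0.43, 0.04 to 0.82), Ehhadh (0.35) and Acaa2 (0.34) followed Crot, and Acaa1a (-0.29), Hacl1 (-0.10), Acads (-0.10) and Acad10 (-0.08) followed Acaa1b. With the WT-HFD cluster counted as PT-like, 2 genes were higher and 1 lower (shares over all genes not computed), and Acaa2 was at -0.91. In late PT cells alone Acaa2 was at -0.69. Acsl1, which differed most with diet, was on HFD at 36.4 CPM for WT and 37.8 CPM for SP (log2 ratio 0.06, -0.15 to 0.26).

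Other genes of the pathway in PT-like cells were taken as whole lists. Of 15 further oxidation genes, 9 passed the filter. Of these, Eci3, a peroxisomal isomerase, rose with log2 ratios of 0.76 (0.67 to 0.84) in WT and 1.05 (0.94 to 1.16) in SP, and none fell past 1.5-fold, with medians of -0.13 in WT and -0.17 in SP. Acyl-CoA thioesterases (7 of 10 passed the filter) had 1 higher and 2 lower in WT and 3 higher and 3 lower in SP. Acot1, a cytosolic thioesterase with close paralogs that may share its reads, was at 68.4 CPM on ND and 11.1 on HFD in WT, and 148 and 12.8 in SP, in the same order of libraries as Acsl1. Of the 13 genes of the tricarboxylic acid cycle, which takes up the acetyl-CoA, 0 passed 1.5-fold in WT, and Fh1 alone rose in SP, with medians of 0.23 and 0.29.

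Targets of PPAR-alpha outside oxidation had lower diet ratios at the median than the 40 genes. Of 11 such genes, 8 passed the filter, of which 5 fell and 1 rose in WT (median log2 ratio -1.68) and 6 fell and 1 rose in SP (median -2.19). Cyp4a10, a fatty acid omega-hydroxylase with near-identical neighbours that may share its reads, was at 125 CPM on ND and 35.7 on HFD in WT, and 462 and 53.2 in SP.
In SP-ND against WT-ND 5 of the 8 were higher and 0 lower, with a median of 0.81, and in SP-HFD against WT-HFD 3 were higher and 0 lower, with a median of 0.32. Of 8 genes of fatty acid uptake and binding, another list, 5 passed the filter. Of these, 1 rose and 2 fell in each genotype, with medians of -0.24 in WT and -0.41 in SP. Fabp3 had the highest and Fabp1 the lowest diet ratio of this list in both genotypes. Fabp1, the fatty acid binding protein of PT and liver, was at 522 CPM on ND and 43.5 on HFD in WT, and 3677 and 32.8 in SP. Of 13 regulators of the pathway, 9 passed the filter. Of these, 0 rose and 2 fell in WT (median 0.09), and 1 rose and 1 fell in SP (median 0.05). Of the receptors among them, Ppara was at 32.9, 48.3, 29.0 and 54.6 CPM, with diet log2 ratios of 0.55 in WT and 0.91 in SP. Ppard, the lowest of the regulators in both genotypes, was at 19.7, 2.37, 21.3 and 3.85 CPM, with -3.06 and -2.47.

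In WT-HFD, one cluster could not be named from any class of markers. Its summed levels of oxidation genes and of PT markers both lay between those of PT-like and all other cells. The cluster held 1361 cells, 1237 of them in WT-HFD, and was singled out after its makeup by library had been seen. The summed level of the 41 genes in WT-HFD was 4938 CPM in this cluster, 7845 in PT-like cells and 3427 in the remaining cells. Of 40 genes, 18 were at least 1.5-fold lower than in PT-like cells (17.0% of all genes tested) and 5 at least 1.5-fold higher (11.7% of all), with a median log2 ratio of -0.42, against -0.005 over all genes.
The level was between those of PT-like and remaining cells for 39 of 40 genes, and the share over all genes was not computed. The summed PT markers also lay between, at 5753 CPM in the cluster, 13949 in PT-like cells and 1541 in the remaining cells. Slc27a2 was at 688 CPM in the cluster, 1757 in PT-like cells and 189 in the remaining cells (log2 ratio of cluster to PT-like -1.35), Ehhadh at 60.0, 124 and 19.7 CPM (-1.04), and Acadm at 249.6, 440 and 188 CPM (-0.82). The number of higher genes was near the share over all genes. These 5 were Acaa2, at 86.5, 18.7 and 113 CPM (2.21, 2.01 to 2.41), Acsl5 (1.42), Acsl4 (0.99), Acsl3 (0.74) and Acsl1 (0.67), all among the 8 genes lowest in PT-like cells relative to other segments. Cpt1a was at 85.0, 87.4 and 96.2 CPM, outside that interval.

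PT markers were lower in this cluster than in PT-like cells by a log2 ratio of -1.28, and the thick limb genes Umod and Slc12a1 summed to 2169 CPM, against 180 in PT-like cells. Against all other cells of the 4 libraries, PT markers were level (mean log2 ratio -0.02) and the thick limb genes were lower (-0.89), and its leading genes were Hsd11b1, Ccl28 and Dnase1, with the thin limb marker Fst among the first 10. The cluster's WT-HFD cells had a median of 7157 UMIs and 29.0% mitochondrial UMIs, and the median over all its cells was 6612 UMIs. The part of mixed droplets or free RNA in these levels was not tested. A cluster chosen by a rule without its makeup by library was another one. The rule took clusters of at least 1% of cells, not named PT, with PT markers above other cells. Among these it took the highest thick limb genes, but no other cluster met the first conditions. The thick limb genes of the chosen cluster were below those of other cells (mean log2 ratio -1.81) and summed to 1773 CPM in WT-HFD. Its best-scoring class was erythroid, with globin genes leading, and it was left unnamed. It held 3147 cells with a median of 956 UMIs, of which the 844 WT-HFD cells had a median of 1807.5 UMIs. Against PT-like cells in WT-HFD it had a median log2 ratio of -0.37, with 9 of 40 genes lower (9.14% of all genes) and 3 higher (12.5% of all). For 35 of 40 genes its level also lay between those of PT-like and remaining cells, so this was not particular to the WT-HFD cluster.

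**Figure D5:**
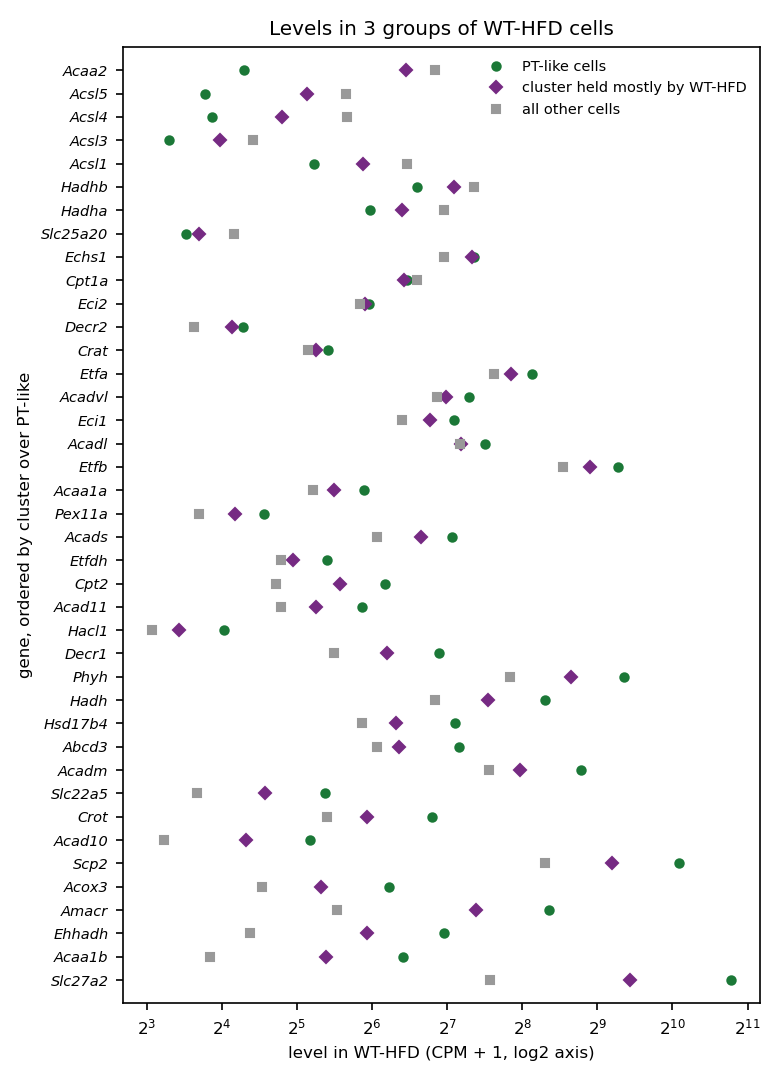
Levels of 40 genes in WT-HFD (x axis, CPM + 1 on a log2 axis) in PT-like cells, in the cluster held mostly by WT-HFD and in all other cells, with genes ordered by cluster over PT-like. The cluster's point lies between the other points for 39 of 40 genes, with Slc27a2 (-1.35) at one end and Acaa2 (2.21) at the other. The share over all genes was not computed.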

How the data were processed

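Single-cell libraries (10x 3′ v3.1) were counted by the authors with Cell Ranger on mm10 and deposited as raw UMI counts per gene and barcode; the version is 6.1.2 in the file headers and 2.1.1 in the submitters' processing notes. Barcodes with 200 to 5000 genes and under 50% mitochondrial UMIs were kept, the highest simulated-doublet scores (0.8% per 1000 cells) were removed, and the 32280 cells were integrated by CCA (2000 features, 50 dimensions) and clustered at a resolution of 0.5 in Seurat 5.3.0 (R 4.3.3), with 111 pathway genes left out of the features. SoupX and scDblFinder were not used. Clusters were named where the mean log2 ratio of a class's markers was at least 1 with at least 3 markers detected, and a cluster of low depth needed a marker of its own among its top 10 genes. Counts were pooled per class and library (Python 3.11.15, scipy 1.17.1) as CPM. A change was called at 1.5-fold among 6520 genes with a mean of at least 10 CPM in PT-like cells; segment ratios used log2(mean CPM + 1). Genes were named as the 5 highest and 5 lowest ratios of each contrast and across segments, plus Cpt1a and Acadm; further names were chosen after their values were seen. The members and lists were chosen with earlier results of these data known. The ratio code was checked on simulated counts. Alternatives were no integration, a resolution of 1.0, a marker score in place of clusters, under 30% mitochondrial UMIs, at least 1000 UMIs, 1.6% per 1000 doublets, early or late PT clusters alone, the rule's cluster or (chosen after seeing the data) the WT-HFD cluster added, nuclear-encoded UMIs as denominator, median-ratio scaling, a mean over cells, 10% ambient RNA subtracted, no filter and a 2-fold threshold. Promoters are from RefSeq (GRCm38.p6) and positions from GENCODE vM21.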

Additional observations from a re-analysis of the deposited data

Results flagged for a closer look

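Among the genes followed under other settings, 3 had HFD to ND ratios of opposite signs in WT and SP PT-like cells. Other members did so too, among them Slc22a5 and Crat, and are not listed here. The difference between the genotypes was not tested. Crot, the peroxisomal carnitine octanoyltransferase, had log2 ratios of -0.41 in WT and 0.10 in SP. Slc27a2, the very long-chain acyl-CoA synthetase, had -0.39 in WT and 0.057 in SP. Acadm, the medium-chain dehydrogenase, had -0.057 in WT and 0.057 in SP. None of these ratios passed 1.5-fold. The SP ratio of Slc27a2 was negative in early PT cells (-0.11) and with nuclear-encoded UMIs as the denominator (-0.045), and that of Acadm was negative among cells with under 30% mitochondrial UMIs (-0.10) and with nuclear-encoded UMIs (-0.045).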

How the results depend on the processing

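With 1 library per condition neither mice nor preparations could be separated from diet and genotype. No paired analysis was possible because there was 1 library per condition, and no library could be left out of a contrast. Depth limits the low genes: Acsl5, at between 6.68 and 14.3 CPM, had the widest intervals among the genes that rose. The ratios of Acsl1, Ehhadh and the other genes described as past 1.5-fold under all settings kept their call. Of the comparisons of a summary value with an alternative, 198 stayed within the interval of the main value and 60 moved past it. Another 2, whose interval lay on one side of 0, changed sign. The interval covered counting error for summed ratios and was the range over the 4 libraries for the segment ratio. For counts of genes the limit was 1.5 times, and the shares over all genes were computed for the main setting only. For medians the interval was wider than for summed ratios, for example -0.16 to 0.08 in SP-HFD against SP-ND. Values near 0 also crossed it: the summed ratio in SP-ND against WT-ND without integration, in early cells and with median-ratio scaling, and the median in SP-HFD against SP-ND without integration (0.0085), with more doublets removed (0.0017) and in early cells (0.075). The causes of the changes below were not tested.

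The log2 ratio of the summed level in WT-HFD against WT-ND (-0.12) was -0.084 without integration, -0.13 with a marker score, -0.15 under 30% mitochondrial UMIs, -0.095 with more doublets removed, -0.032 in early and -0.17 in late cells, -0.14 with nuclear-encoded UMIs as denominator, -0.14 with the rule's cluster added and -0.34 with the WT-HFD cluster added. The median of the members in this contrast (-0.05) was 0.068 in early cells, -0.16 in late cells and -0.16 with the WT-HFD cluster added. The number higher (1) was 2 in early cells and 0 in late cells, with the rule's cluster added and at 2-fold, and the number lower (6) was 3 at 2-fold. The summed ratio in SP-HFD against SP-ND (-0.04) was 0.00044 without integration, -0.10 under 30% mitochondrial UMIs, -0.012 in early and -0.022 in late cells, -0.14 with nuclear-encoded UMIs and -0.065 as a mean over cells, and the number higher (5) was 2 at 2-fold.

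The summed ratio in SP-ND against WT-ND (0.00) was 0.020 with a marker score, 0.071 under 30% mitochondrial UMIs, 0.034 with more doublets removed, 0.021 with the rule's cluster added, 0.099 with nuclear-encoded UMIs, -0.065 with median-ratio scaling, 0.057 as a mean over cells and 0.016 with ambient RNA subtracted. The median (0.12) was 0.19 under 30% mitochondrial UMIs and 0.20 with nuclear-encoded UMIs, settings that moved the median over all genes from 0.07 to 0.14 and 0.17. The number higher (4) was 7 with nuclear-encoded UMIs and 1 at 2-fold. The number lower (1) was 3 with median-ratio scaling, 2 with the rule's cluster added and 0 with a marker score, more doublets removed, nuclear-encoded UMIs, a mean over cells and at 2-fold.

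The summed ratio in SP-HFD against WT-HFD (0.09) was 0.12 with a marker score, 0.12 under 30% mitochondrial UMIs, 0.016 in early and 0.16 in late cells, 0.11 with the rule's cluster added, 0.031 with median-ratio scaling, 0.11 as a mean over cells and 0.31 with the WT-HFD cluster added. The number higher (0) was 1 under 30% mitochondrial UMIs, in early cells and in late cells, 3 as a mean over cells and 2 with the WT-HFD cluster added, and the number lower (0) was 1 in late cells and with the WT-HFD cluster added. The segment ratio (0.92) was 0.84 with a marker score and 0.85 as a mean over cells. The median of the rule's cluster against PT-like cells (-0.37) was -0.49 without integration and -0.24 under 30% mitochondrial UMIs, and a marker score gives no cluster to compare.

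Of single genes, Acsl4 (0.0088) and Acaa2 (0.010) changed sign in WT-HFD against WT-ND with the WT-HFD cluster added, and Acadm did in early cells (0.17). In SP-HFD against SP-ND Acadm was -0.10 under 30% mitochondrial UMIs and -0.045 with nuclear-encoded UMIs, and Slc27a2 was -0.11 in early cells and -0.045 with nuclear-encoded UMIs. In SP-HFD against WT-HFD, Acaa2 was -0.69 in late cells and -0.91 with the WT-HFD cluster added, Acaa1b 0.0095 with that cluster added, Amacr -0.17 in early cells and -0.038 as a mean over cells, Phyh -0.0034 with median-ratio scaling and -0.019 as a mean over cells, and Slc27a2 -0.067 in early cells.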
